A study of Zea mays with 14 samples.

Results

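B73 root was compared with B73 aerial seedling, 2 libraries against 2 of the 14 in the series, across all 39305 gene IDs of the deposited tables. Both tissues came from seedlings of the maize inbred line B73, wild type and 3 days old, that had germinated in moist paper. The root group is what was left of the root after its hairs had been scraped off in liquid nitrogen, and the aerial seedling group is the part of such seedlings above the root. It is not stated which organs the aerial part held, what light the seedlings received, or whether the 2 libraries of a group came from separate plants. A further pair of B73 wild type root libraries, listed in the series beside zmlrl5 knock out root, had also had their hairs removed according to their titles. They are called the second root set below. Their CPM were scaled together with the 6 libraries of the B73 tissue set (root, aerial seedling and root hair). All other CPM were scaled over those 6 alone. Calls and log2 fold changes with the second root set come from a separate fit, in which it replaced the root libraries. The members of each gene list were found by gene name.

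A root anchors the plant and takes up water and ions. Its tip carries a dividing meristem under a root cap, and its older part holds lignified vessels and an endodermis sealed by Casparian strips. The shoot of a maize seedling builds leaves from a meristem at its tip, fixes carbon by the C4 pathway, in which phosphoenolpyruvate carboxylase captures carbon dioxide ahead of Rubisco, and covers its surface with wax. Young maize shoots are also known for stores of benzoxazinoids, defence compounds that a glucosidase releases on wounding. In bulk tissue, fewer cells of a type and less RNA per cell cannot be told apart, which holds for each difference below.

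The root libraries held 14775951 and 26147759 counts and the aerial seedling libraries 20731338 and 17774420. Across genes, which are not independent replicates, log2 CPM (counts scaled to the library total with TMM factors) correlated at 0.986 between the root libraries, at 0.977 between the aerial seedling libraries and at 0.664 to 0.675 between the tissues. Replicates still differed by more than counting noise, with a chi-square per degree of freedom of 12.3 in root and 26.6 in aerial seedling. The 100 most abundant IDs took 19.8% and 18.1% of the counts in root, against 24.4% and 23.1% in aerial seedling. The TMM factors were 1.36 and 1.5 in root and 1.07 in both aerial seedling libraries. A count of 3 in 1 library equals 0.0767 to 0.158 CPM. For a gene without reads in a tissue, a lower bound of its fold was computed with 3 counts over both libraries of that tissue together.

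The labels of the tissues were checked against known markers. RCP1 (GRMZM2G097316), which encodes a protein of the root cap, had 83.3 and 78.9 CPM in root and 0 counts in both aerial seedling libraries, at least 1102-fold higher in root. Cab-m7 (GRMZM2G402936), a chlorophyll-binding protein of the photosystem antenna, had 0.498 and 0.537 CPM in root, against 829 and 646 CPM in aerial seedling. rbcS-m3 (GRMZM2G098520), a small subunit of Rubisco, had 0.0498 and 0.205 CPM in root, against 589 and 764 CPM in aerial seedling. Root and aerial seedling did not overlap in any of these genes. pep1 (GRMZM2G083841), the phosphoenolpyruvate carboxylase of the C4 cycle, had 0.1495 and 0.307 CPM in root, against 208 and 178 CPM in aerial seedling. Ppdk1 (GRMZM2G306345), pyruvate phosphate dikinase of that cycle, had 10.6 and 11.7 CPM in root, against 344 and 263 CPM in aerial seedling. These shoot markers were all lower in root, although Ppdk1 stayed above 1 CPM there. The shoot meristem gene kn1 (GRMZM2G017087) was low in both tissues, with 0.399 and 0.153 CPM in root, against 1.85 and 1.69 CPM in aerial seedling. rtcs (GRMZM2G092542), needed for shoot-borne and seminal roots to form, had 24.5 and 18.7 CPM in root, against 12.6 and 14.6 CPM in aerial seedling, a log2 fold change of 0.66 ± 0.26; it was not called without root replicate 1 (0.46) or without aerial seedling replicate 1 (0.62). No ID carried the name shr.

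Markers of root hair and of grain were then read in the same libraries. The hair gene PER2 (GRMZM2G040638), a peroxidase, had 139 and 117 CPM in root, against 0.903 and 1.42 CPM in aerial seedling, while the 2 B73 root hair libraries had 3364 and 3351 CPM. Cel4 (GRMZM2G343144), a cellulase, had 31.9 and 25.2 CPM in root, against 0.587 and 0.527 CPM in aerial seedling, and 4716 and 5407 CPM in root hair. rth3 (GRMZM2G377215), a COBRA-like wall protein needed for hairs to elongate, had 19.9 and 20.8 CPM in root, against 27.9 and 23.7 CPM in aerial seedling, and the difference did not pass the test. PER2 and Cel4 were thus still measured in scraped root, far below root hair, and rth3 was no higher in root than in aerial seedling. Of 43 named genes for grain storage proteins and oleosins, 6 passed the filter on low counts, and their summed level was 2.74 and 1.87 CPM in root, against 4.74 and 5.43 CPM in aerial seedling. Grain transcripts were low in both tissues.

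**Figure D1:**
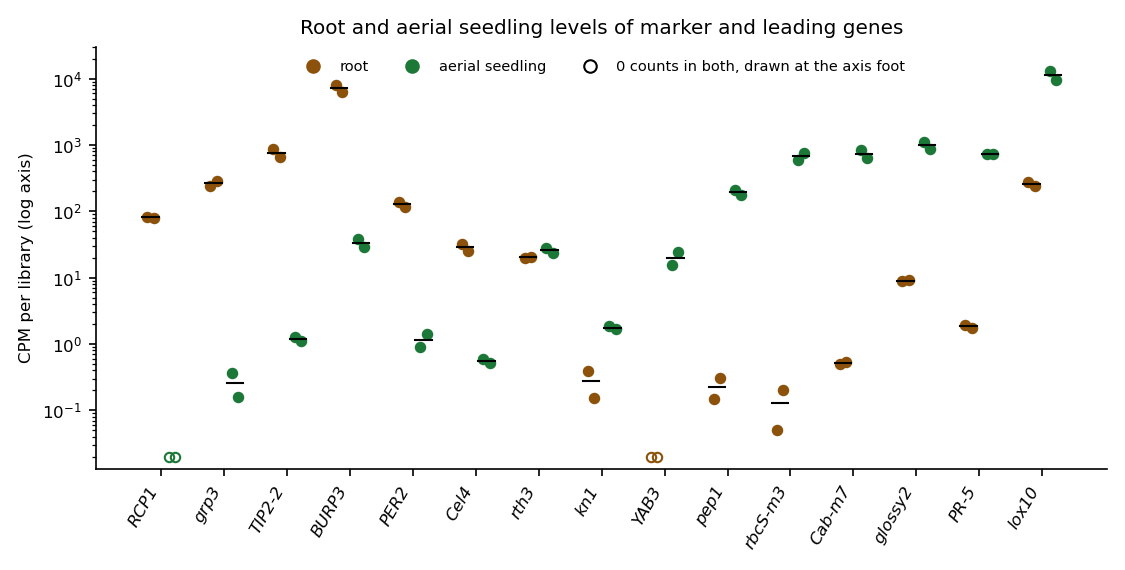
CPM in each library, on a log axis, for marker genes and genes that led the comparison, with root left of aerial seedling for each gene, a bar at each mean and open circles for genes with 0 counts in both libraries. The root genes RCP1 to Cel4 lie higher in root, the rth3 libraries lie close together, and kn1 to lox10 lie higher in aerial seedling.

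Most genes tested differed between the tissues, 60.6% in either direction. The quasi-likelihood test of edgeR covered 25551 genes, of which 7293 were higher in root (28.5%) and 8182 lower (32.0%), at a Benjamini-Hochberg adjusted p under 0.05. By 2-fold or more, 5285 were higher (20.7%) and 6782 lower (26.5%). The largest differences lay on the side of the aerial seedling: 740 genes were higher in root by 16-fold or more and 1713 lower, and past 64-fold the counts were 360 and 860. The median log2 fold change over all genes tested was -0.02. In all, 19956 IDs reached 1 CPM in both root libraries, 20756 did so in both aerial seedling libraries, and 18123 did so in all 4. Only 91 IDs had at least 1 CPM in both root libraries and 0 counts in aerial seedling, and 174 had the reverse pattern.

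Named genes cover a small part of this difference. Of the 100 genes with the largest rise in root 7 have a name, and of the 100 with the largest fall 22 have one. The gene lists below therefore hold the named part of each family. Of the 2350 named genes tested, 645 were higher in root (27.4%) and 876 lower (37.3%), and a list has to be read against these shares as well as against those of all genes. Where another scaling or test, a left-out library or the second root set moved a list's count by more than 1.5 times, that count follows it after "but".

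**Figure D2:**
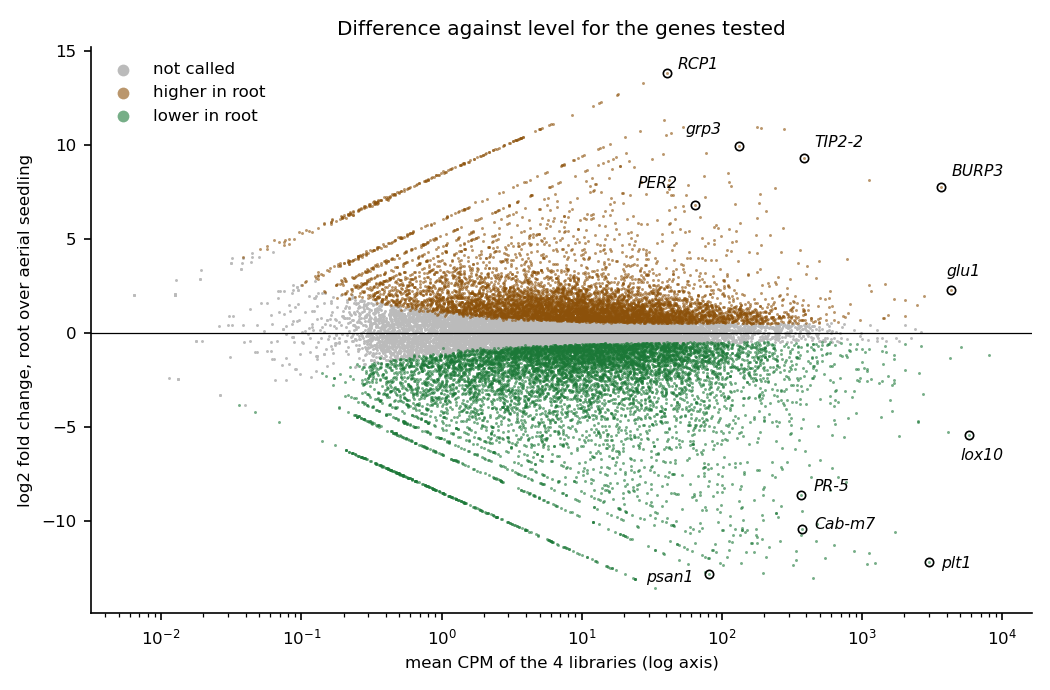
Log2 fold change of root over aerial seedling against the mean CPM of the 4 libraries (log axis) for the genes tested, coloured by call. The 7293 genes higher in root and the 8182 lower spread over the whole range of levels, the straight lines at the left edge are genes with 0 or few counts in one tissue, and circles mark 11 named genes.

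Among the strongest root genes with a name, several are known from water transport, walls and secondary metabolism. BURP3 (GRMZM2G106980), a member of the BURP domain family of wall-associated proteins, had 8111 and 6371 CPM in root, against 37.8 and 28.8 CPM in aerial seedling, and took 1.10% of all counts in root replicate 1, the largest share of any ID there. Its log2 fold change was 7.76 ± 0.30 (adjusted p = 1.87e-22, edgeR quasi-likelihood test). The tonoplast aquaporin gene TIP2-2 (GRMZM2G056908) had 878 and 648 CPM in root, against 1.26 and 1.11 CPM in aerial seedling. Its relative TIP2-3 (GRMZM2G125023) had 177 and 130.1 CPM in root, against 0.226 and 0.158 CPM in aerial seedling. Both vacuolar water channels were close to absent above ground. CCD8 (GRMZM2G446858), a carotenoid cleavage dioxygenase of strigolactone synthesis, had 16.9 and 12.4 CPM in root, against 0.226 and 0.158 CPM in aerial seedling. grp3 (GRMZM2G154954), a glycine-rich protein, had 244 and 287 CPM in root, against 0.361 and 0.158 CPM in aerial seedling. RCP2 (GRMZM2G146502), another root cap protein, had 41.7 and 36.9 CPM in root, against 0.271 and 0.369 CPM in aerial seedling. The tissues did not overlap in any of these genes, but that was a condition for choosing them and is no further support. The named genes with 0 counts in aerial seedling and at least 1 CPM in root were RCP1, al1 (GRMZM2G118759) (at least 100.37-fold), ZCN2 (GRMZM2G156079) (at least 65.6-fold), wox5B (GRMZM2G116063) (at least 40.3-fold) and nrt2 (GRMZM2G010280) (at least 24.1-fold). wox5B belongs to the WOX5 group of homeobox genes, which mark the quiescent centre of the root tip, and nrt2 is a high-affinity nitrate transporter gene.

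Genes of photosynthesis and plastids were lower in root for 71 and higher for 6 of 89 tested. Of 14 photosystem and light-harvesting genes tested (15 members), 13 were lower in root and 1 higher, with a median log2 fold change of -9.14 beside -0.02 for all genes, but 0 higher without root replicate 2 or without aerial seedling replicate 2. Their summed level was 83.3 and 98.8 CPM in root, against 2585 and 2299.7 CPM in aerial seedling. lhcb3 (GRMZM2G155216), an antenna protein of photosystem II, had 0.0498 and 0.179 CPM in root, against 229.8 and 172 CPM in aerial seedling. psan1 (GRMZM2G080107), a subunit of photosystem I, had 1 count in root replicate 2 and 0 counts in root replicate 1, and 143 and 178 CPM in aerial seedling, a ratio of aerial seedling to root of 9414 (95% counting interval 1689 to 371869.5). The exception was psiP (GRMZM2G060659), at 45.3 and 52.6 CPM in root, against 34.9 and 18.6 CPM in aerial seedling, a log2 fold change of 0.87 ± 0.25; it was not called without root replicate 2 (0.76) or without aerial seedling replicate 2 (0.49).

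Of 7 Rubisco genes tested (8 members) 6 were lower in root and 1 higher, and of 8 C4 cycle genes 7 were lower and 0 higher. The Rubisco list had 1 higher, but 0 higher without root replicate 1, without aerial seedling replicate 1 or with the second root set. The C4 enzyme gene me3 (GRMZM2G085019), for NADP-malic enzyme, had 2.24 and 2.098 CPM in root, against 106 and 127 CPM in aerial seedling. mdh6 (GRMZM2G129513), for NADP-malate dehydrogenase, had 0.947 and 0.537 CPM in root, against 44.96 and 55.5 CPM in aerial seedling. The members pck2, CA and PPCK1 differed less. pck2 (GRMZM5G870932), phosphoenolpyruvate carboxykinase, had 129 and 113 CPM in root, against 234 and 169 CPM in aerial seedling, a log2 fold change of -0.73 ± 0.22, and was not called without root replicate 2 (-0.64) or without aerial seedling replicate 1 (-0.41). CA (GRMZM2G087259), carbonic anhydrase, was at -0.68 ± 0.26, and was not called under upper-quartile scaling (-0.46), by DESeq2's test (-0.62), without root replicate 2 (-0.51), without aerial seedling replicate 2 (-0.60) or with the second root set (-0.24). PPCK1 (GRMZM2G178074), a kinase of phosphoenolpyruvate carboxylase, did not pass the test, at 7.18 and 6.68 CPM in root, against 7.09 and 6.22 CPM in aerial seedling. rca1 (GRMZM2G162200), Rubisco activase, had 0.0498 and 0.0767 CPM in root, against 174 and 184 CPM in aerial seedling. The Rubisco assembly factor bsd2 (GRMZM2G062788) was lower as well, with a log2 fold change of -3.63 ± 0.35, and stayed above 1 CPM in root. The gene higher in root was rcalm (GRMZM2G004703), not called without root replicate 1 (0.61) or without aerial seedling replicate 1 (0.51), and it turned with the second root set (-0.78).

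Plastid gene expression and import genes counted 30 lower and 3 higher in root out of 38 (44 members), with a median of -2.42, but 1 higher with the second root set. PSA3 (GRMZM2G051403), which helps to assemble photosystem I, had 0.199 and 0.153 CPM in root, against 40.9 and 38.7 CPM in aerial seedling. The 3 that were higher in root were EF-Ts (GRMZM2G095534), a translation factor at 23.8 and 27.8 CPM in root, against 5.101 and 8.17 CPM in aerial seedling, and both IDs named CPNA, GRMZM2G111477 and GRMZM2G458208. EF-Ts was not called with the second root set (0.31). CPNA (GRMZM2G111477) had 90.3 and 98.3 CPM in root, against 8.08 and 6.69 CPM in aerial seedling, a log2 fold change of 3.67 ± 0.26. Among chlorophyll and carotenoid genes 15 of 22 were lower and 1 higher, but 2 higher with DESeq2 size factors, by DESeq2's test, by limma-voom or without aerial seedling replicate 1 and 3 higher under upper-quartile scaling. oy1 (GRMZM2G419806), a magnesium chelatase subunit of chlorophyll synthesis, had 2.14 and 1.64 CPM in root, against 99.98 and 132 CPM in aerial seedling, and lcyE (GRMZM2G012966), lycopene epsilon cyclase, had 0.0498 and 0.0767 CPM in root, against 15.1 and 15.1 CPM in aerial seedling. The one that was higher was psy2 (GRMZM2G149317), a phytoene synthase, at 6.28 and 6.34 CPM in root, against 4.02 and 2.002 CPM in aerial seedling; it was not called without aerial seedling replicate 2 (0.65), and had 0.754 and 2.21 CPM in the second root set.

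**Figure D3:**
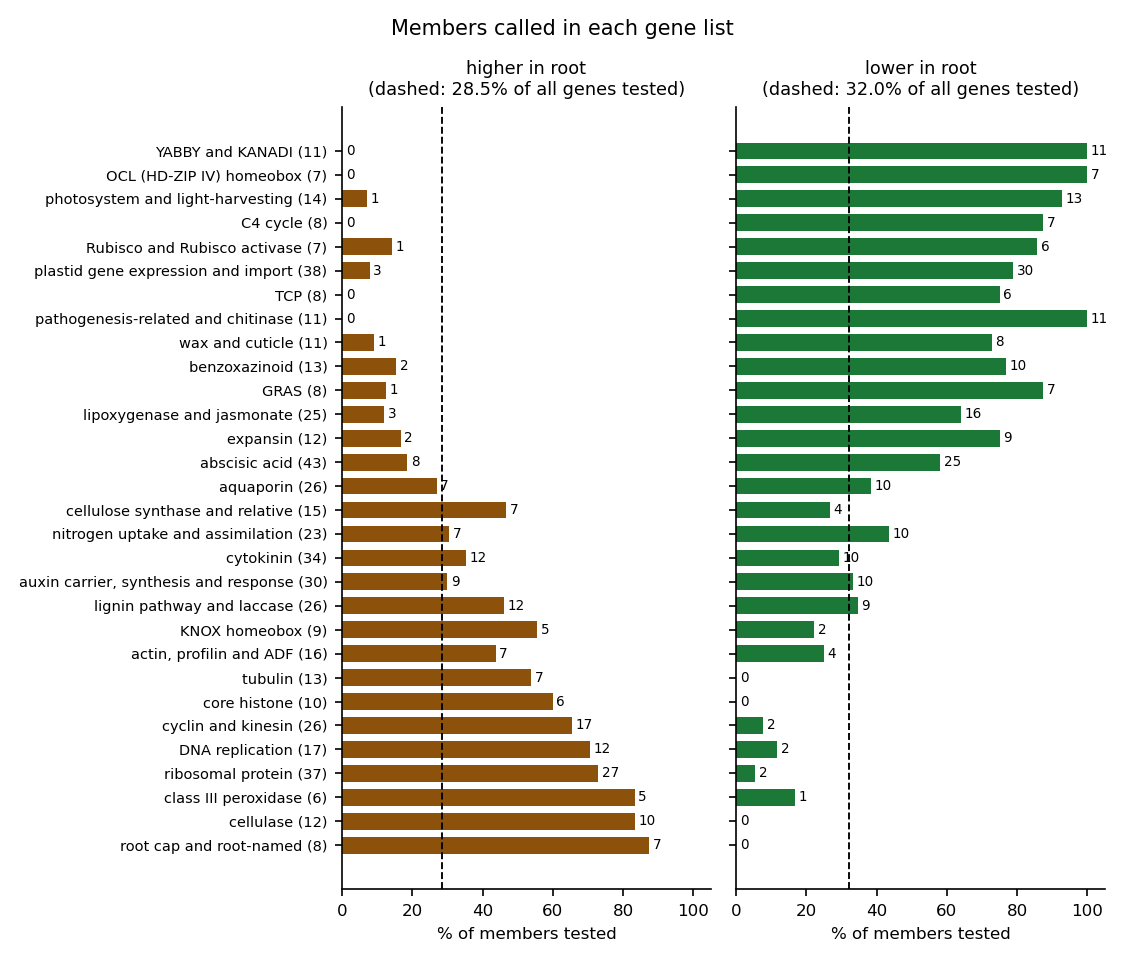
Share of the tested members of 30 of the 64 gene lists that were higher (left) or lower (right) in root, with the number of members called at each bar, the number tested in parentheses and dashed lines at the 28.5% and 32.0% of all genes tested. Lists of leaf development, photosynthesis and defence lie right of the line for genes lower in root, and lists of growth, cellulases and peroxidases right of the line for genes higher in root.

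Of 115 genes in the lists of shoot development 63 were lower in root and 23 higher. YABBY and KANADI genes, known from the polarity and blade growth of lateral organs, were lower in root in 11 of 11 tested. Their median was -9.08, and 5 of them had 0 counts in both root libraries. YAB3 (GRMZM2G106204) had 0 counts in root and 15.4 and 24.6 CPM in aerial seedling, at least 388-fold lower in root, and YAB11 (GRMZM2G141955) had 0 and 0.0512 CPM in root, against 47.4 and 51.00 CPM in aerial seedling. OCL genes, homeobox genes of the HD-ZIP IV class that are active in the outer cell layer, were lower in 7 of 7, with a median of -7.73. ocl5 (GRMZM2G130442) had 0 counts in root (at least 817-fold lower), whereas ocl1 (GRMZM2G026643) had 12.7 and 12.6 CPM in root, against 74.6 and 56.7 CPM in aerial seedling. ocl3 (GRMZM2G116658) had 8.37 and 8.83 CPM in root, against 104 and 68.2 CPM in aerial seedling. Both of these were well above a count of 3 in root. TCP genes, growth regulators of lateral organs, were lower for 6 of 8 and higher for 0. TCP7 (GRMZM2G035944) had 0 counts in root and 34.1 and 29.7 CPM in aerial seedling, while TCP4 (GRMZM2G445944) and TCP12 (GRMZM2G093895) did not pass the test, at -0.18 ± 0.24 and -0.33 ± 0.23, though TCP12 was called lower with the second root set (-1.0).

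The KNOX class, known from the shoot meristem, differed from these families in its counts: 5 of 9 genes tested were higher in root and 2 lower, with a median of 1.11, but 1 lower in a fit of the 4 libraries alone or with the second root set. lg4 (GRMZM2G094241) had 44.8 and 36.4 CPM in root, against 5.78 and 4.06 CPM in aerial seedling. lg3 (GRMZM2G087741) had 12.7 and 13.7 CPM in root, against 2.48 and 3.32 CPM in aerial seedling, a log2 fold change of 2.19 ± 0.31. kn1 itself was lower, at -2.80 ± 0.57 on the log2 scale, and knox3 (GRMZM2G000743) had 0 counts in root and 1.31 and 0.421 CPM in aerial seedling. knox6 (GRMZM2G370332) and knox7 (GRMZM2G433591) did not pass the test, at -0.02 ± 0.24 and -0.18 ± 0.24. Root and aerial seedling did not overlap for lg3, lg4 and kn1. In the second root set lg4 had 74.4 and 72.4 CPM and lg3 had 54.2 and 48.9 CPM, again above aerial seedling. Of 3 WOX homeobox genes tested (13 members), wox5B was higher, wox2A (GRMZM2G108933) lower, and wox13B (GRMZM5G805026) did not pass the test, though it was called lower without aerial seedling replicate 1 (-0.89) and with the second root set (-1.37). The list had 1 higher and 1 lower, but 2 higher with the second root set and 2 lower without the filter on low counts, without aerial seedling replicate 1 or with the second root set.

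Other developmental families were mixed. Growth-regulating factor genes included 8 lower and 2 higher of 17 measured, but 4 higher under upper-quartile scaling, 1 higher by DESeq2's test, without aerial seedling replicate 1 or with the second root set, 0 higher without root replicate 1 or without root replicate 2 and 13 lower with the second root set. GRF1 (GRMZM2G034876) had 0.0997 and 0.256 CPM in root, against 7.67 and 7.797 CPM in aerial seedling. MADS box genes had 10 lower and 6 higher among the 21 tested, but 3 higher by DESeq2's test. SBP genes had 5 lower and 5 higher of 18, near the 32.0% and 28.5% of all genes tested. Of the MADS box IDs named zmm2, GRMZM2G492156 had 4.58 and 6.96 CPM in root, against 0.0903 and 0.0527 CPM in aerial seedling. GRMZM2G316366 had 2.79 and 1.74 CPM in root, against 0.316 and 0.421 CPM in aerial seedling. The MADS box gene m29 (GRMZM2G152862) had 0.1495 and 0.0767 CPM in root, against 3.93 and 4.85 CPM in aerial seedling. LBD genes counted 5 lower and 2 higher in root out of 9: LOB15 (GRMZM2G060544) had 11.3 and 10.8 CPM in root, against 135 and 141 CPM in aerial seedling, LBD6 (GRMZM2G118250) and ial1 (GRMZM2G133806) had 0 counts in root, and the 2 that were higher were rtcs and LOB19 (GRMZM2G079185), by less than 2-fold, and LOB19 was not called without root replicate 1 (0.53) or without aerial seedling replicate 2 (0.85). The LBD list had 2 higher, but 0 higher without root replicate 1 and 1 higher without aerial seedling replicate 1 or without aerial seedling replicate 2. GRAS genes were lower for 7 of 8, among them SCR (GRMZM2G131516), which in root patterns the endodermis, at 10.4 and 14.6 CPM in root, against 76.4 and 60.2 CPM in aerial seedling. The DELLA genes D8 (GRMZM2G144744) and d9 (GRMZM2G024973), repressors of gibberellin response, were lower, with log2 fold changes of -1.59 ± 0.22 and -1.61 ± 0.24. The GRAS gene higher in root was GRAS19 (GRMZM2G172657), not called with the second root set (0.39). Light, clock and flowering genes included 13 lower and 4 higher of 21 measured, but 7 higher without the filter on low counts and 9 higher with the second root set. With the second root set the median of this list was -0.15, against -2.17 here. COL8 (GRMZM2G114137), glk1 (GRMZM2G026833), which drives chloroplast development, and id1 (GRMZM2G011357), a flowering regulator of leaves, had 0 counts in root, whereas gigz1a (GRMZM2G107101), a GIGANTEA gene of the clock, had 66.9 and 60.6 CPM in root, against 20.5 and 18.5 CPM in aerial seedling. Of 154 microRNA precursor IDs 8 passed the filter on low counts and 6 were lower in root and 0 higher, but 1 higher with the second root set and 3 lower with the second root set. MIR168b (zma-MIR168b) had 2.99 and 2.69 CPM in root, against 6.45 and 7.16 CPM in aerial seedling.

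The list of root cap and root-named genes, chosen for root, held 8 genes, of which 7 were higher in root and 0 lower. zrp4 (GRMZM2G017557), an O-methyltransferase of root, had 47.9 and 47.1 CPM in root, against 4.51 and 4.74 CPM in aerial seedling. ZmCASP1 (GRMZM2G110832), which forms the membrane domain under the Casparian strip, had 2 counts in aerial seedling and 8.27 and 8.88 CPM in root, a ratio of root to aerial seedling of 178 (95% counting interval 49.1 to 1477). ZmCASP1 is also in a separate list of 3 Casparian strip genes, of which 2 were tested. The other one tested, ZmCASPL5A1 (GRMZM2G086604), did not pass the test (-0.34 ± 0.35). In the second root set ZmCASP1 had 1.07 and 0.3605 CPM, lower than here and above aerial seedling (0.0451 and 0.0527 CPM). It did not pass the filter on low counts in that fit. The Casparian strip list then had 0 higher, with 1 member tested, at a log2 fold change of -0.30.

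Cellulases, endoglucanases that trim cell walls, were higher in root for 10 of 12 and lower for 0, with a median of 2.49, but 6 higher without root replicate 1 and 1 lower without aerial seedling replicate 2 or with the second root set. Cel17 (GRMZM2G141911) had 19.7 and 14.04 CPM in root, against 0.361 and 0.579 CPM in aerial seedling, and Cel16 (GRMZM2G125436) had 1.096 and 0.972 CPM in root and 0 counts in aerial seedling (at least 13.9-fold higher). In the second root set Cel17 had 4.27 and 5.5 CPM, and Cel16 had 0 CPM in both libraries. Class III peroxidases, secreted enzymes that crosslink wall polymers, counted 5 higher and 1 lower in root out of 6, but 0 lower with the second root set. PER66 (GRMZM2G133475) had 91.1 and 70.1 CPM in root, against 0.497 and 0.369 CPM in aerial seedling. PER70 (GRMZM2G025441) had 398 and 270.4 CPM in root, against 19.1 and 16.8 CPM in aerial seedling. Both were higher in root. In the second root set PER66 had 665 and 705 CPM and PER70 308 and 326 CPM. PER42 (GRMZM2G126261) ran the other way, at 226 and 173 CPM in root, against 442 and 519 CPM in aerial seedling, a log2 fold change of -1.27 ± 0.22, but had 845 and 869 CPM in the second root set, above aerial seedling.

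Of 90 genes in the transport lists 25 were higher in root and 37 lower, close to the 27.4% and 37.3% of all named genes tested. Of 26 aquaporin genes tested (27 members), 7 were higher in root and 10 lower, close to the background shares of 28.5% and 32.0%. Besides TIP2-2 and TIP2-3, the plasma membrane gene pip2-5 (GRMZM2G178693) had 471 and 363 CPM in root, against 68.8 and 59.3 CPM in aerial seedling, a log2 fold change of 2.70 ± 0.23. NIP1-1 (GRMZM2G041980) had 0.748 and 0.358 CPM in root, against 206 and 158 CPM in aerial seedling, and TIP3-1 (GRMZM2G305446), a tonoplast gene of a type known from seeds, had 0.299 and 0.2302 CPM in root, against 33.1 and 21.2 CPM in aerial seedling. The ranges of the tissues did not overlap in any of these 5.

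Nitrogen genes included 7 higher and 10 lower of 23 measured, beside 27.4% higher and 37.3% lower of all named genes tested. NAR2.1 (GRMZM2G179294), the partner protein that high-affinity nitrate transporters need, had 57.1 and 42.1 CPM in root, against 0.858 and 0.843 CPM in aerial seedling, whereas its relative NAR2.2 (GRMZM2G163494) had 0.449 and 0.179 CPM in root, against 10.6 and 7.43 CPM in aerial seedling. The pair thus had opposite directions, 5.85 ± 0.31 and -4.98 ± 0.48 on the log2 scale. NR (GRMZM5G878558), a nitrate reductase, had 0.399 and 0.0512 CPM in root, against 8.44 and 7.48 CPM in aerial seedling. GLN2 (GRMZM2G098290), a glutamine synthetase, had 0.698 and 0.844 CPM in root, against 27.7 and 40.7 CPM in aerial seedling. Both of these were lower in root. Of 4 phosphate transporter genes pht9 (GRMZM2G070087) was higher, with 2 counts in aerial seedling, 14.9 and 11.9 CPM in root and a ratio of root to aerial seedling of 266 (95% counting interval 73.4 to 2200.3). pht1 (GRMZM2G326707) and pht7 (GRMZM2G112377) were lower, with log2 fold changes of -2.76 ± 0.25 and -1.56 ± 0.46 and pht2 (GRMZM2G154090) did not pass the test, at 35.3 and 28.3 CPM in root, against 32.9 and 25.2 CPM in aerial seedling, but was called higher with the second root set (0.73). The list had 1 higher and 2 lower of 4, but 2 higher with the second root set and 1 lower by DESeq2's test or without aerial seedling replicate 1. pht7 was not called by DESeq2's test (-1.53) or without aerial seedling replicate 1 (-1.04). pht1 stood at 90.8 and 102 CPM in the second root set, closer to aerial seedling than the root libraries here.

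Potassium transporters and channels had 5 higher and 8 lower among the 22 tested, but 3 higher without root replicate 1, 9 higher with the second root set and 5 lower without root replicate 1. HAK10 (GRMZM2G443728) had 56.1 and 49.3 CPM in root, against 16.1 and 14.01 CPM in aerial seedling, and HAK1 (GRMZM2G093826) had 81.7 and 89.5 CPM in root, against 394 and 272 CPM in aerial seedling. Among 8 iron and phytosiderophore genes 2 were higher and 3 lower, but 1 higher without root replicate 1, without root replicate 2, without aerial seedling replicate 1 or with the second root set. The potassium and iron counts lay near the shares of all named genes tested, 27.4% higher and 37.3% lower. Over all genes tested the shares were 28.5% and 32.0%. Nramp1 (GRMZM2G147560), of a family of metal transporters, had 11.8 and 7.700 CPM in root, against 0.587 and 0.474 CPM in aerial seedling, while ysl12 (GRMZM5G893444), of the yellow stripe-like family, had 4.63 and 4.48 CPM in root, against 149.6 and 123 CPM in aerial seedling. ys1 (GRMZM2G156599), which takes up iron bound to phytosiderophores, and fer1 (GRMZM2G325575), a ferritin, did not pass the test, at -0.50 ± 0.24 and -0.34 ± 0.22 on the log2 scale, but were called lower without aerial seedling replicate 2 (-0.55) for ys1 and without aerial seedling replicate 1 (-0.50) for fer1, and both with the second root set (-1.42 and -1.88). Proton pumps were split as well, 3 higher and 4 lower of 7, but 1 higher without root replicate 2, without aerial seedling replicate 1 or with the second root set. The plasma membrane ATPase gene pma1 (GRMZM2G104325) was higher (0.99 ± 0.22), its relatives mha2 (GRMZM2G019404) and mha4 (GRMZM2G006894) were lower (-0.85 ± 0.21 and -0.95 ± 0.21), and of the vacuolar pyrophosphatase genes vpp1 (GRMZM2G069095) was lower at -2.0 ± 0.22 while vpp2 (GRMZM2G094497) and vpp3 (GRMZM2G421857) were higher at 0.52 ± 0.22 and 0.60 ± 0.22. mha2 was not called with the second root set (-0.26). vpp2 was not called with the replicate block (0.52), without root replicate 1 (0.58), without root replicate 2 (0.45) or without aerial seedling replicate 1 (0.37), and vpp3 not called without root replicate 2 (0.46) or without aerial seedling replicate 1 (0.43). With the second root set their log2 fold changes were -0.41 and -0.53.

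**Figure D4:**
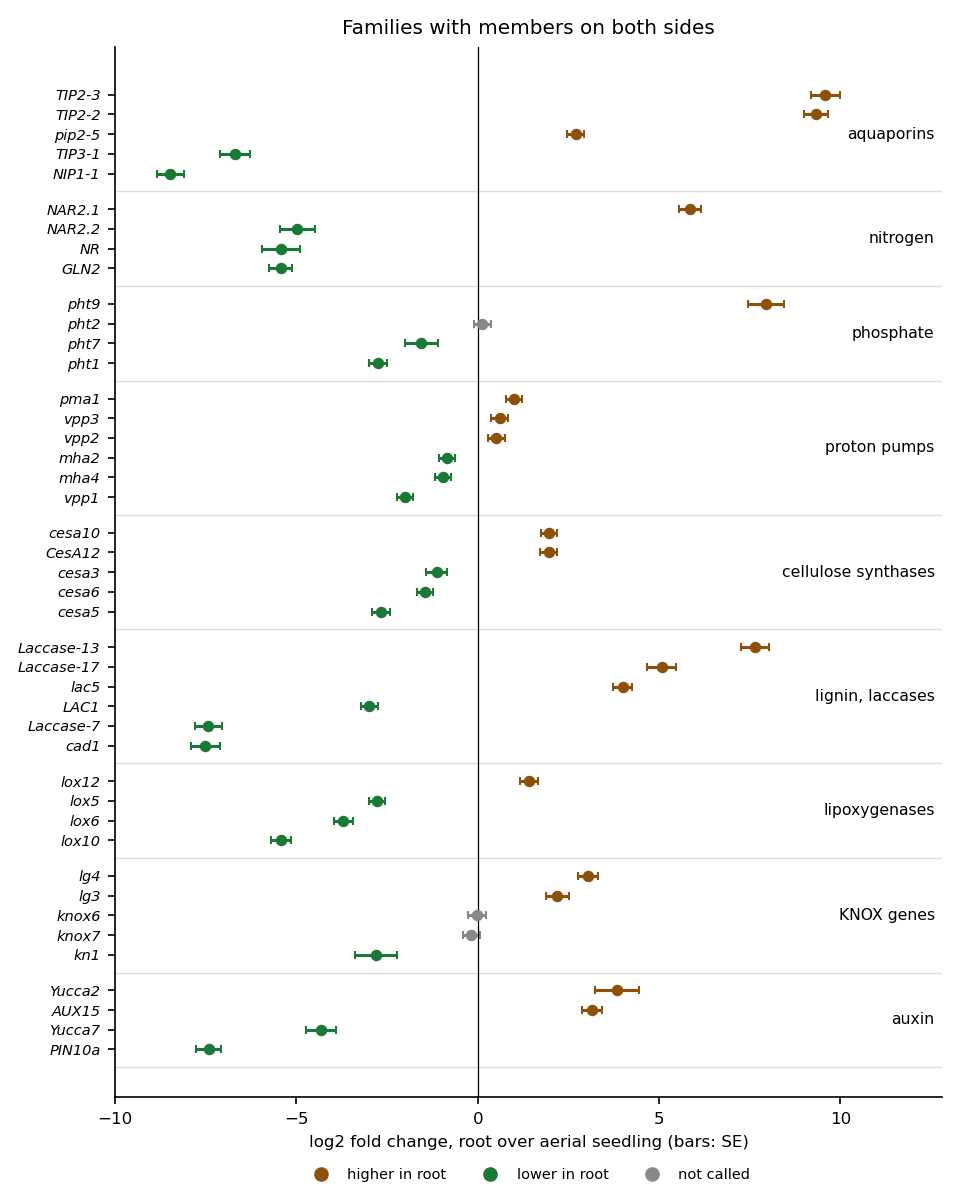
Log2 fold change of root over aerial seedling, with its SE, for named members of 9 groups, coloured by call. Groups and members were picked to show both directions. They run from TIP2-3 at 9.59 to NIP1-1 at -8.47 among aquaporins and from Laccase-13 at 7.64 to cad1 at -7.51 among lignin genes.

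Of 15 cellulose synthase genes and relatives, 7 were higher in root and 4 lower. cesa10 (GRMZM2G445905), of the group that makes cellulose of secondary walls, had 525 and 525 CPM in root, against 142 and 125 CPM in aerial seedling. CesA12 (GRMZM2G142898), of the same group, had 170.4 and 179 CPM in root, against 56.8 and 33.4 CPM in aerial seedling. Root and aerial seedling did not overlap in either gene. bk2 (GRMZM2G109326), a COBRA-like gene whose mutant has brittle stalks and little secondary wall cellulose, had 239.7 and 206 CPM in root, against 36.4 and 27.1 CPM in aerial seedling, a log2 fold change of 2.81 ± 0.25. cesa5 (GRMZM2G111642), of the group of growing primary walls, had 10.96 and 16.6 CPM in root, against 80.8 and 94.9 CPM in aerial seedling. cesa6 (GRMZM2G113137), of that group, had 93.4 and 109 CPM in root, against 278 and 279 CPM in aerial seedling. Both were lower in root. In the second root set cesa10 had 419 and 475 CPM and cesa5 25.96 and 24.3 CPM. Of 6 COBRA-like genes 2 were higher and 1 lower, but 2 lower with the second root set. Lignin pathway and laccase genes counted 12 higher and 9 lower in root out of 26. Laccases, which polymerise lignin, stood at both ends. Laccase-13 (GRMZM5G814718) had 93.3 and 72.96 CPM in root, against 0.587 and 0.211 CPM in aerial seedling. Laccase-7 (GRMZM2G094375) had 0.399 and 0.358 CPM in root, against 70.8 and 59.5 CPM in aerial seedling. cad1 (GRMZM2G046070), a cinnamyl alcohol dehydrogenase, had 0.1495 and 0.256 CPM in root, against 38.4 and 42.8 CPM in aerial seedling.

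Expansins, which loosen growing walls, had 9 lower and 2 higher among the 12 tested, but 0 higher without root replicate 1, without root replicate 2 or without aerial seedling replicate 2 and 1 higher with the second root set. expB7 (GRMZM2G342246) had 62.8 and 53.95 CPM in root, against 679 and 652 CPM in aerial seedling. expA4 (GRMZM2G445169) had 7.92 and 5.24 CPM in root, against 106 and 71.96 CPM in aerial seedling. Higher in root were expA3 (GRMZM2G074585), at 46.1 and 38.9 CPM in root, against 33.00 and 22.9 CPM in aerial seedling, and expB5 (GRMZM2G013671), at 12.4 and 11.6 CPM in root, against 7.36 and 6.796 CPM in aerial seedling. Their log2 fold changes were 0.60 ± 0.25 and 0.76 ± 0.29. expA3 was not called without root replicate 1 (0.48), without root replicate 2 (0.72) or without aerial seedling replicate 2 (0.36), and expB5 not called without root replicate 1 (0.71), without root replicate 2 (0.81) or without aerial seedling replicate 2 (0.70). In the second root set expA3 had 0.0629 and 0.225 CPM and expB5 0.0629 and 0.135 CPM, and both were called lower than aerial seedling there, at -7.58 and -6.15.

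Genes of the surface and of defence were mostly lower in root, 93 of 158 tested with 24 higher. Of 11 wax and cuticle genes 8 were lower and 1 higher, but 0 higher without root replicate 1, without aerial seedling replicate 1 or with the second root set. glossy2 (GRMZM2G098239), needed for wax of young leaves, had 8.97 and 9.08 CPM in root, against 1116 and 856 CPM in aerial seedling. CER1 (GRMZM2G099097), of alkane wax synthesis, had 0 counts in root and 30.3 and 19.5 CPM in aerial seedling. The lipid transfer protein gene plt1 (GRMZM2G101958) had 0.349 and 1.89 CPM in root, against 6004 and 5866 CPM in aerial seedling. The wax gene higher in root was fdh1 (GRMZM5G824600), not called without root replicate 1 (0.55) or without aerial seedling replicate 1 (0.49), and it turned with the second root set (-0.33). The 11 pathogenesis-related and chitinase genes were lower in 11 of 11, with a median of -5.82 and a summed level of 872 and 664 CPM in root, against 12392 and 13168 CPM in aerial seedling. PR-5 (GRMZM2G402631) had 1.94 and 1.77 CPM in root, against 736 and 727 CPM in aerial seedling. KWL1 (GRMZM2G073114), a kiwellin, had 0.0997 and 0.333 CPM in root, against 359.9 and 339 CPM in aerial seedling. The tissues did not overlap in these genes. Of 10 protease inhibitor genes 7 were lower and 1 higher, but 2 higher with the second root set. wip1 (GRMZM2G156632), an inhibitor known to be induced by wounds, had 8.37 and 8.37 CPM in root, against 1085 and 1327 CPM in aerial seedling. TIFY genes, which include repressors of jasmonate response, counted 9 lower and 2 higher in root out of 21, but 6 higher with the second root set and 5 lower without root replicate 2.

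Benzoxazinoid genes included 10 lower and 2 higher of 13 measured, with a median of -2.51, but 1 higher by DESeq2's test, without root replicate 1, without root replicate 2, without aerial seedling replicate 1 or with the second root set. bx2 (GRMZM2G085661), an oxygenase of the pathway, had 47.2 and 47.9 CPM in root, against 1138 and 1271 CPM in aerial seedling. The glucosidase genes of this pathway had opposite directions. glu1 (GRMZM2G016890) had 7630.1 and 6603 CPM in root, against 1551 and 1401 CPM in aerial seedling; it took 0.987% of the counts of root replicate 2, the largest share of any ID there. glu2 (GRMZM2G008247) had 0.598 and 0.512 CPM in root, against 190.1 and 128 CPM in aerial seedling. Lipoxygenase and jasmonate genes had 16 lower and 3 higher among the 25 tested, but 5 higher with the second root set. lox10 (GRMZM2G015419), the lipoxygenase of leaf volatile synthesis, took 1.37% of the counts of aerial seedling replicate 1, more than any other ID. It had 281 and 243 CPM in root, against 12827 and 9662 CPM in aerial seedling, a log2 fold change of -5.42 ± 0.27 (adjusted p = 1.70e-19, edgeR quasi-likelihood test). lox6 (GRMZM2G040095) had 91.6 and 76.1 CPM in root, against 1268 and 927 CPM in aerial seedling. The 3 higher in root were opr3 (GRMZM2G156712), at 13.1 and 10.6 CPM in root, against 2.48 and 2.79 CPM in aerial seedling, lox12 (GRMZM2G106748) and opr5 (GRMZM2G087192), at log2 fold changes of 2.17 ± 0.27, 1.41 ± 0.25 and 0.65 ± 0.22. opr5 was not called without root replicate 1 (0.63) or without root replicate 2 (0.67), and lox12 stood at -0.12 with the second root set.

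Terpene synthase genes counted 14 lower and 4 higher in root out of 22. Of the 2 IDs named TPS9, GRMZM2G122231 had 28.95 and 28.5 CPM in root, against 660.0 and 488 CPM in aerial seedling. GRMZM2G312521 had 18.4 and 18.9 CPM in root, against 559 and 429 CPM in aerial seedling. Both were lower in root. EDS (GRMZM2G010356), a sesquiterpene diol synthase of root, had 96.5 and 99.4 CPM in root, against 1.896 and 2.42 CPM in aerial seedling. tps23 (GRMZM2G127336), which makes the volatile caryophyllene, was low in root here, at 0.847 and 0.6396 CPM with 0 counts in aerial seedling, and stood at 83.9 and 75.2 CPM in the second root set. Anthocyanin and flavonoid genes included 7 lower and 3 higher of 14 measured, but 5 higher under upper-quartile scaling or in a fit of the 4 libraries alone and 6 higher with the second root set. The regulator R-S (GRMZM5G822829) had 238 and 200.3 CPM in root, against 12.01 and 9.69 CPM in aerial seedling. BZ1 (GRMZM2G165390), a glucosyltransferase of anthocyanin synthesis, had 2.04 and 1.100 CPM in root, against 62.1 and 49.7 CPM in aerial seedling. Glutathione transferases had 8 higher and 11 lower of 32, but 13 higher under upper-quartile scaling and 3 higher without root replicate 1. The shares over all genes tested were 28.5% higher and 32.0% lower.

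Hormone lists held members in both directions, as did all genes tested, with 28.5% higher and 32.0% lower. The auxin counts lay close to these shares. Of 30 auxin genes 9 were higher and 10 lower, but 14 higher under upper-quartile scaling and 16 lower with the second root set. PIN10a (GRMZM2G126260), an auxin efflux carrier, had 0.548 and 0.435 CPM in root, against 95.1 and 70.9 CPM in aerial seedling, and spi1 (GRMZM2G025222), an auxin synthesis gene of the YUCCA family, had 2 counts in root and 3.57 and 2.16 CPM in aerial seedling. Yucca7 (GRMZM2G333478) had 0.648 and 0.307 CPM in root, against 10.6 and 7.27 CPM in aerial seedling, whereas Yucca2 (GRMZM2G159393) had 2.84 and 2.302 CPM in root, against 0.0451 and 0.316 CPM in aerial seedling. AUX15 (GRMZM2G079200) had 39.5 and 32.98 CPM in root, against 3.93 and 4.21 CPM in aerial seedling. ARF genes, which encode auxin response factors, had 5 lower and 2 higher among the 18 tested, but 8 lower with the second root set. Yucca2 stood at 28.1 and 28.8 CPM in the second root set.

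Cytokinin genes included 12 higher and 10 lower of 34 measured, near the 28.5% and 32.0% of all genes tested. RR6 (GRMZM2G129954), a response regulator gene that cytokinin induces, had 84.9 and 86.3 CPM in root, against 8.58 and 7.74 CPM in aerial seedling, a log2 fold change of 3.39 ± 0.24. CKX10 (GRMZM2G348452) and CKX5 (GRMZM2G325612), oxidases that break cytokinin down, were lower, CKX10 at 10.6 and 7.39 CPM in root, against 80.6 and 56.1 CPM in aerial seedling and CKX5 at 0 counts in root. czog1 (GRMZM2G168474), which stores zeatin as a glucoside, had 4.58 and 3.22 CPM in root, against 47.6 and 37.2 CPM in aerial seedling. Gibberellin and brassinosteroid genes had 3 higher and 5 lower among the 13 tested, but 5 higher under upper-quartile scaling or without aerial seedling replicate 1. Dwarf1 (GRMZM2G036340), which makes active gibberellin, had 16.5 and 14.9 CPM in root, against 3.48 and 3.11 CPM in aerial seedling. d3 (GRMZM2G093195), an oxidase earlier in that pathway, had 6.88 and 3.99 CPM in root, against 61.8 and 37.7 CPM in aerial seedling. Dwf4 (GRMZM2G065635), of brassinosteroid synthesis, had 24.5 and 22.8 CPM in root, against 6.27 and 5.16 CPM in aerial seedling. Abscisic acid genes counted 25 lower and 8 higher in root out of 43, but 5 higher without root replicate 2. dhn1 (GRMZM2G079440), a dehydrin, had 5.08 and 4.86 CPM in root, against 127 and 184 CPM in aerial seedling. EREB genes included 18 lower and 5 higher of 31 measured, but 9 higher with the second root set.

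The lists of growth, with those for heat shock among them, together had 82 genes higher in root and 24 lower of 153 tested. DNA replication genes counted 12 higher and 2 lower in root out of 17, with a median of 1.02, but 1 lower without root replicate 2. MCM7 (GRMZM2G065205), a subunit of the replicative helicase, had 11.6 and 12.6 CPM in root, against 3.75 and 2.42 CPM in aerial seedling. Cyclin and kinesin genes included 17 higher and 2 lower of 26 measured. KIN6 (GRMZM2G114861), a kinesin, had 41.5 and 62.3 CPM in root, against 5.24 and 3.27 CPM in aerial seedling. Core histones had 6 higher and 0 lower among the 10 tested, but 2 higher without root replicate 1 and 1 lower without aerial seedling replicate 1. By 2-fold or more, 2 of them were higher. his2b5 (GRMZM2G342515) had 308 and 251 CPM in root, against 124 and 138 CPM in aerial seedling. H3C2 (GRMZM2G401581) had 167 and 123 CPM in root, against 98.8 and 83.2 CPM in aerial seedling, and was not called without root replicate 1 (0.43). Tubulins counted 7 higher and 0 lower in root out of 13, with tua6 (GRMZM2G083243) at 471 and 443 CPM in root, against 118 and 190.2 CPM in aerial seedling. Actin, profilin and ADF genes included 7 higher and 4 lower of 16 measured, but 3 higher without root replicate 1, 1 lower under upper-quartile scaling and 2 lower by DESeq2's test, without root replicate 1, without root replicate 2 or without aerial seedling replicate 2. act1 (GRMZM2G126010) had 37.8 and 33.8 CPM in root, against 81.9 and 132 CPM in aerial seedling. Ribosomal protein genes had 27 higher and 2 lower among the 37 tested, with a median of 0.82, but 16 higher without root replicate 1. rps24 (GRMZM2G091383) had 190.2 and 142 CPM in root, against 31.1 and 50.4 CPM in aerial seedling. The 2 that were lower were rpl19 (GRMZM2G171444) and rpl29 (GRMZM2G028216), with log2 fold changes of -3.49 ± 0.27 and -3.86 ± 0.33. The table of names does not say which of these proteins serve plastid ribosomes. ROP and NADPH oxidase genes counted 5 higher and 1 lower in root out of 10, but 2 higher without root replicate 2. Heat shock genes ran the other way, with 13 members lower and 1 higher of 24, but 3 higher under upper-quartile scaling, 0 higher without root replicate 2, 2 higher without aerial seedling replicate 2 and 4 higher with the second root set.

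Part of this was not seen with the second root set in place of the 2 root libraries. Ribosomal protein genes included 1 higher and 24 lower of 36 measured, with a median of -0.92. Core histones had 0 higher and 3 lower among the 10 tested, actin genes 3 higher and 7 lower of 15, and tubulins 5 higher and 4 lower of 13. Replication genes and cyclins and kinesins were mostly higher with that set too, with 9 higher and 3 lower of 17, and 14 higher and 3 lower of 26. Root cap transcripts moved with these lists. RCP1 had 0.503 and 0.406 CPM in the second root set, RCP2 1.95 and 2.21 CPM and grp3 0 and 0.406 CPM, all far below the root libraries here. his2b5 had 111 and 114 CPM, H3C2 34.9 and 33.8 CPM and rps24 44.6 and 40.6 CPM there, within or below the range of aerial seedling. The actin gene Maz81 (GRMZM2G006765) had 66.9 and 76.2 CPM in root, against 11.3 and 19.6 CPM in aerial seedling, and 2.45 and 2.39 CPM in the second root set. TIP2-2 and BURP3, by contrast, had 498 and 547 CPM and 9265 and 9379 CPM. The part of root cap transcripts in these differences was not tested. The labels do not say whether the second root set was prepared or sequenced with the aerial seedling.

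**Figure D5:**
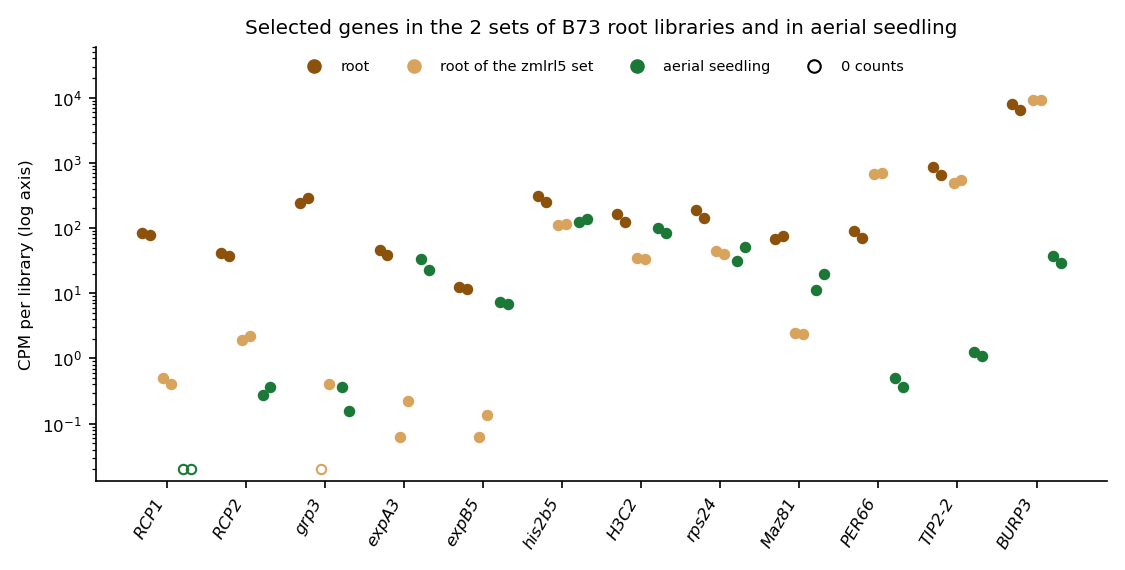
CPM per library, on a log axis, for 12 genes in root, in the second root set (labelled root of the zmlrl5 set) and in aerial seedling, with open circles for libraries with 0 counts. RCP1, RCP2, grp3, expA3 and expB5 lie far below the root libraries in the second root set, his2b5, H3C2, rps24 and Maz81 reach or pass below aerial seedling, PER66 stands higher, and TIP2-2 and BURP3 stay far above aerial seedling.

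Several other lists were counted with the second root set as well. Photosystem genes were lower for 12 of 14, YABBY and KANADI genes for 10 of 11, OCL genes for 7 of 7, and pathogenesis-related genes for 10 of 11. Cellulases were higher for 9 of 11 and peroxidases for 6 of 6. Light, clock and flowering genes counted 9 higher and 10 lower in root out of 23, flavonoid genes 6 and 6 of 15, and TIFY genes 6 and 9 of 20. Over all genes, 11297 of the 15475 genes called here (73%) were called in the same direction with the second root set, and 768 were called in the opposite one.

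Among other regulators, 67 of 153 genes were lower in root and 32 higher. WRKY genes had 8 lower and 0 higher among the 18 tested, but 2 higher under upper-quartile scaling, 1 higher without aerial seedling replicate 1 and 3 higher with the second root set. NAC genes had 13 lower and 2 higher of 25, but 1 higher without root replicate 1 and 4 higher with the second root set. MYB genes counted 12 higher and 13 lower in root out of 35, but 7 higher without root replicate 1. The shares over all genes tested were 28.5% higher and 32.0% lower. MYB165 (GRMZM2G089686) had 22.3 and 16.1 CPM in root, against 0.361 and 0.211 CPM in aerial seedling. MYB61 (GRMZM2G108959) had 0 counts in root. bHLH genes included 12 higher and 21 lower of 43 measured. bHLH71 (GRMZM2G120021) had 15 and 11.6 CPM in root, against 0.0903 and 0.105 CPM in aerial seedling. Among bZIP genes, 6 higher and 12 lower of 32, bZIP107 (GRMZM2G094352) had 24.2 and 18.8 CPM in root, against 0.271 and 0.263 CPM in aerial seedling.

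In central metabolism, starch genes counted 10 lower and 6 higher in root out of 21, but 2 higher without root replicate 2 and 3 higher without aerial seedling replicate 1. Agpsemzm (GRMZM2G106213), a subunit of the enzyme that makes ADP-glucose for starch, had 2.19 and 3.71 CPM in root, against 55.8 and 49.05 CPM in aerial seedling. Sucrose genes included 6 lower and 2 higher of 13 measured, but 4 higher with the second root set. The sucrose synthase sh1 (GRMZM2G089713) had 321 and 291 CPM in root, against 1484 and 1730.1 CPM in aerial seedling. The invertase ivr2 (GRMZM2G089836) had 1934 and 1617 CPM in root, against 1045 and 1013 CPM in aerial seedling. mn1 (GRMZM2G119689), a cell wall invertase, had 3 counts in root, a ratio of aerial seedling to root of 271 (95% counting interval 92.4 to 1319.6). Fermentation and hemoglobin genes had 6 lower and 1 higher among the 8 tested. adh1 (GRMZM2G442658), alcohol dehydrogenase, had 209.6 and 198 CPM in root, against 574 and 787 CPM in aerial seedling, and was not called with the second root set (-0.16). LDH (GRMZM2G128929), lactate dehydrogenase, did not pass the test (0.26 ± 0.22). adh1 stood at 676 and 683 CPM in the second root set, at the level of aerial seedling.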

How the data were processed

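RNA of hairless root and aerial seedling was sequenced as mRNA libraries; the tools were TopHat2, HTSeq and DESeq per the submitters' processing notes, with versions, build, annotation and strand setting not given in the sources used here. The deposited values are raw read counts per gene ID, one table per library; reads without a gene or with more than one (3.58% to 4.42% and 1.91% to 2.58% of the 4 libraries) stayed out. Counts were scaled with TMM, filtered with filterByExpr (minimum count 10, minimum total 15) and fitted with edgeR 4.0.16 (R 4.3.3) over the 6 libraries of the B73 tissue set (root, aerial seedling, root hair). Its quasi-likelihood test with Benjamini-Hochberg adjustment over 25551 genes gave the calls at 0.05; errors after ± are standard errors. Alternatives used DESeq2 1.42.0 and limma 3.58.1 (voom), and the script was tested on simulated data. Counting intervals are exact 95% intervals; lower bounds of folds take 3 counts over the 2 libraries of a tissue for a gene without reads. Intervals and bounds cover counting error only, and reads carry no molecular identifiers. P-values set the tissue difference against the spread between libraries of the same group. That spread was estimated over root, aerial seedling and root hair together, and may be technical.

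Names come from the RefSeq table of Zm-B73-REFERENCE-NAM-5.0, which matched 18997 of 39305 IDs (521 of them more than once) and gave 2795 IDs a name; the symbol was used or, where it was LOC and a number, a named synonym. Near-identical copies can share reads, so members of multigene families are uncertain. Named genes are the 15 largest changes in each direction among named genes at 10 CPM or more, up to 3 called members per list and direction, all members of lists of up to 10, and tissue markers. The members and lists were chosen with earlier results of these data known.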

Additional observations from a re-analysis of the deposited data

How the results depend on the processing

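The counts of genes higher and lower in root stayed within 1.5 times of 7293 and 8182 in each alternative run. Leaving out each library in turn gave 5441 to 7119 genes higher and 6655 to 7809 lower. Upper-quartile scaling gave 8896 and 7145 and moved the median difference over all genes to 0.196 on the log2 scale. DESeq2's test gave 6575 and 7064, and limma-voom 7332 and 8161. With the replicate block the counts were 6910 and 7812; deviations of same-numbered root and aerial seedling libraries correlated at -0.068, so the numbers are not read as pairs. Under the block vpp2 was no longer called.

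Directions of the genes named here turned with the second root set alone. A few of these genes, ZmCASP1 among them, did not pass the filter on low counts in that fit and have no direction there. Of the 8 root cap and root-named genes 6 were tested in it. Other genes named here turned with that set. Their log2 fold changes were then -2.82 for Maz81, -0.0908 for rps24, -0.12 for tua6, -0.12 for lox12, -0.38 for his2b5, -1.13 for psy2, -0.78 for rcalm, -6.15 for expB5, -1.56 for H3C2, -0.33 for fdh1, -7.58 for expA3, -0.53 for vpp3, -0.41 for vpp2 and 0.68 for PER42. The cause was not tested. Of 128 counts over the gene lists, 41 moved by more than 1.5 times with that set, 6 to 18 on leaving out a library, and 0 under the block. With 2 libraries a group, genes with small differences depend on single libraries, and 7356 IDs had 0 counts in all 4 libraries, where no difference was detectable.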
